A study of Drosophila melanogaster with 2 samples.

Results

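Aminoacyl-tRNA synthetases join each amino acid to its transfer RNA, the step that fixes the genetic code before translation. Animal cells use a cytosolic set and a mitochondrial set, both encoded in the nucleus, and in many animals part of the cytosolic set is held together in a multisynthetase complex. The synthetase genes are housekeeping genes, active in nearly all cells. The 33 genes described here were all protein-coding genes of the fly annotation named by an amino acid code (or GluPro) followed by RS, out of 13968 protein-coding genes. Of these, 18 carry no suffix and are called cytosolic below, and 15 carry the suffix -m and are called mitochondrial. The rule leaves out the cytosolic phenylalanine enzyme, whose subunit genes alpha-PheRS and beta-PheRS are treated with the related genes at the end.

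Binding of Spps, an Sp/KLF family transcription factor with zinc fingers that is known to act at Polycomb response elements, was mapped by chromatin immunoprecipitation with sequencing (ChIP-seq). Whole Drosophila melanogaster embryos of 0 to 12 h, from a transgenic line that stably expresses Spps with GFP at its C-terminal end, were precipitated with an antibody against GFP in 2 biological replicates of 1 group. Both replicates come from this tagged line, so there was no untagged or untreated group to compare, and whole embryos mix all cell types. Each replicate gave a list of 30000 peaks, as did the pooled reads of both, and 3260 peaks made up a further list, kept for reproducibility by their irreproducible discovery rate (IDR). All 3260 IDR peaks were the 3260 strongest peaks of the pooled list. Depth is unknown, as no reads are counted in them. Each of the 3 longer lists ends at 30000 peaks, and binding weaker than its last peak would not be listed. A gene is counted as having a promoter summit when a peak summit lay within 500 bp of any of its annotated transcription start sites (TSSs).

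Reproducible Spps-GFP summits lay at 9 of the 33 synthetase promoters. They were at 8 of the 18 cytosolic genes (IleRS, SerRS, GluProRS, ThrRS, MetRS, LeuRS, AlaRS and AsnRS) and at 1 of the 15 mitochondrial genes (ProRS-m). Over all protein-coding genes 13.6% had such a summit. The cytosolic share was 44.4% (exact 95% interval 21.5 to 69.2), the mitochondrial share 6.67% (0.169 to 31.9) and the share of all members 27.3% (13.3 to 45.5). These intervals cover counting over genes only, and the shares of the classes were not tested against each other, since genes are not replicates.

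The windows at 4 of the 9 IDR summits are given as DNA. They were read on the strand of the synthetase gene from the RefSeq release 6 assembly, which has dm6 coordinates. They are the IleRS summit at chr3L:22288376-22288576 (plus strand), the GluProRS summit at chr3R:23958451-23958650 (minus strand), the ThrRS summit at chr2L:12103466-12103666 (plus strand) and, as the only mitochondrial one, the ProRS-m summit at chr3L:2651889-2652087 (minus strand). Each window reaches 100 bp to either side of the summit, trimmed where an annotated exon begins. Capitals mark matches on either strand to the TATA box (TATAAA), the Initiator (TCAGTT or TCAGTC), and the BEAF-32 core (CGATA).
IleRS: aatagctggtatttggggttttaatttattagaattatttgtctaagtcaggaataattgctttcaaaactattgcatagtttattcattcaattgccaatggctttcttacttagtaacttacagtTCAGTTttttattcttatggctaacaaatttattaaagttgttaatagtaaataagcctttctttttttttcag
GluProRS: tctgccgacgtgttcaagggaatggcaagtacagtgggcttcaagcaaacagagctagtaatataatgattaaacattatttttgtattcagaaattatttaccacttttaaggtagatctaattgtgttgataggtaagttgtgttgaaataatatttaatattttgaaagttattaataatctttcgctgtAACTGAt
ThrRS: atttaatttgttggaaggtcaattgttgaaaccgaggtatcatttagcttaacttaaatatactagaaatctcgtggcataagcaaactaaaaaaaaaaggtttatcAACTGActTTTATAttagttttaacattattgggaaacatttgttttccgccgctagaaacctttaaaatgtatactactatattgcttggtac
ProRS-m: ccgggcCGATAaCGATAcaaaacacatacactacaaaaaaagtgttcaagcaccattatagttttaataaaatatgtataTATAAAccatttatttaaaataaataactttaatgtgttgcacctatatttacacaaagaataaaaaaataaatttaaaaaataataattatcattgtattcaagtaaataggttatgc
SerRS, the second strongest, has exons close to its summit, so 30 bases are given, at chr2L:3037395-3037424 (minus strand).
SerRS: tggtTATAAAgggtatttcttatgggaaat
The 4 longer windows are rich in A and T. The G and C share within 100 bp of the summit was 25.9% at IleRS, 29.9% at GluProRS, 29.4% at ThrRS and 22.9% at ProRS-m. Over the 9 members it ran from 22.9% to 31.3% with a median of 27.9%. The 1388 IDR summits within 500 bp of any protein-coding TSS had a median of 32.3% (quartiles 28.4% and 38.3%), and the chromosome arms hold 42.2% G and C. All 9 members were below the median of those 1388 summits, a measure chosen after the data were seen and not tested.

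Genes of the multisynthetase complex held 4 of the reproducible summits. IleRS, which charges isoleucine, had the strongest synthetase peak, at chromosome 3L 22288374 to 22288593 (dm6), in intergenic DNA 189 bp upstream of its TSS. Its signal, the deposited enrichment value of the peak caller, was 364 in the pooled list, 250 in replicate 1 and 111 in replicate 2. The scale of this value differs between lists, so ranks are the fair reading: the peak stood at rank 311 of the pooled list, 249 of replicate 1 and 553 of replicate 2. GluProRS encodes a fused enzyme for glutamic acid and proline, and its summit was intergenic, 160 bp upstream (3R 23958431 to 23958619). It had a signal of 239 in the pooled list, 153 in replicate 1 and 84.2 in replicate 2, at ranks 782, 727 and 973. IleRS and GluProRS thus stood among the 1000 strongest peaks of all 3 lists.

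MetRS and LeuRS, which charge methionine and leucine, had weaker summits that ranked higher in replicate 2 than in replicate 1. The MetRS peak (2R 18850512 to 18850887, intergenic, 101 bp upstream) had a pooled signal of 137, with 79.9 in replicate 1 (rank 2249) and 59.6 in replicate 2 (rank 1710). The LeuRS peak (2L 3514518 to 3514893, intergenic, 50 bp upstream) had a pooled signal of 136, with 76.7 in replicate 1 (rank 2390) and 64.6 in replicate 2 (rank 1490). At LeuRS the strongest summit lay 5 bp upstream of the TSS in replicate 1 and 143 bp upstream in replicate 2, and both replicate lists held 2 summits there. The remaining genes of the complex, known from other animals to include the enzymes for arginine, aspartic acid, glutamine and lysine, had no IDR summit.

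Enzymes outside the complex held the other cytosolic summits. SerRS, which charges serine, had a summit 6 bp upstream of a TSS (2L 3037308 to 3037509), inside an intron of its neighbour CG17260. Its signal was 302 in the pooled list, 189 in replicate 1 and 112 in replicate 2, at ranks 478, 461 and 539. ThrRS, the threonine enzyme, had an intergenic summit 185 bp upstream (2L 12103457 to 12103595) with a signal of 232 in the pooled list, 135 in replicate 1 and 93.3 in replicate 2. Both peaks stood in the top 1000 of the pooled and both replicate lists, ThrRS at ranks 823, 909 and 807. The 30 bases at the SerRS summit given above hold a TATA box string.

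AlaRS and AsnRS, for alanine and asparagine, were the weakest cytosolic members of the IDR list. The AlaRS summit lay 95 bp upstream of a TSS, in the 3′ UTR of the neighbouring gene CG13392 (2L 8381671 to 8382046). Its signal was 119 in the pooled list, 87.5 in replicate 1 (rank 1933) and 37.5 in replicate 2 (rank 3778). The AsnRS summit was intergenic, 144 bp upstream (2L 19131910 to 19132285), with a pooled signal of 101, 66.5 in replicate 1 (rank 3007) and 34.3 in replicate 2 (rank 4339). AsnRS stood at rank 3224 of 3260, near the end of the IDR list. Both genes were thus within the first 3260 peaks of replicate 1 and past them in replicate 2.

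ProRS-m, the mitochondrial proline enzyme, had an intergenic summit 139 bp upstream of its TSS (3L 2651801 to 2652176). Its signal was 110 in the pooled list (rank 2831), 79.8 in replicate 1 (rank 2261) and 31.1 in replicate 2 (rank 5170). The strongest replicate 2 summit lay 47 bp upstream of the TSS and that of replicate 1 176 bp upstream. No mitochondrial gene stood among the 1000 strongest IDR peaks, a count of 0 of 15 that allows a share of up to 20%. Of the cytosolic genes 4 did (IleRS, SerRS, GluProRS and ThrRS), against 4.52% of all protein-coding genes.

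**Figure D1:**
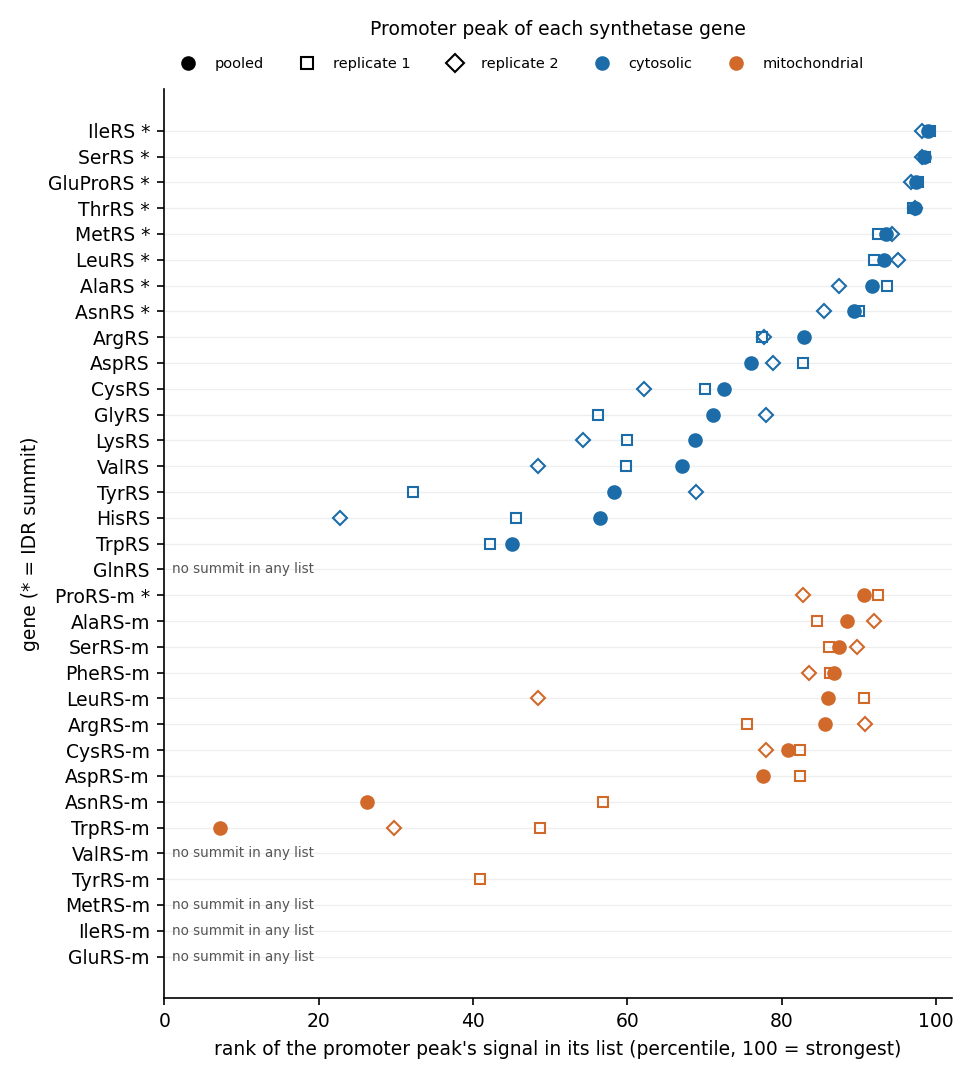
Rank of the strongest promoter peak of each synthetase gene, as a percentile of peak signal within the pooled, replicate 1 and replicate 2 lists (100 is the strongest peak), with 1 point per list and an asterisk for genes with an IDR summit. The top 4 cytosolic genes sit together in all 3 lists, and 5 genes have no summit in any list. In the pooled list a group of mitochondrial genes sits just below ProRS-m, but in replicate 2 AlaRS-m, ArgRS-m, SerRS-m and PheRS-m sit above it.

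In the longer pooled list most members of both classes had a promoter summit. There 17 of 18 cytosolic genes (94.4%, exact 95% interval 72.7 to 99.9) and 10 of 15 mitochondrial genes (66.7%, 38.4 to 88.2) had a promoter summit, where 55% of all protein-coding genes did. Among the members without an IDR summit, 9 of 10 cytosolic genes had a pooled peak, with signals of 35.2 to 75, and 9 of 14 mitochondrial genes, with signals of 25 to 96.9. These ranges cover only genes with a peak and do not rank the classes.

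Several mitochondrial genes stood just past the end of the IDR list. AlaRS-m, for alanine, had a pooled signal of 96.9 at rank 3445, with 51.6 in replicate 1 and 48.6 in replicate 2. SerRS-m, for serine, had 91.6 at rank 3788, from a summit 478 bp upstream of its TSS, near the edge of the window. PheRS-m, for phenylalanine, had 88.6 at rank 3985, with summits 16 bp downstream of the TSS in the pooled list, 3 bp downstream in replicate 1 and 36 bp downstream in replicate 2. LeuRS-m (rank 4194) and ArgRS-m (rank 4317) followed, both named after their values were seen. These 5 genes had a pooled −log10 q-value of 3.96, the capped value that every IDR peak carries. The q-value therefore cannot compare them with the IDR members, and they stood below those members in signal rank. When the 5000 strongest pooled peaks were taken in place of the IDR list, a limit chosen after the data were seen, 8 of 18 cytosolic genes (44.4%) and 6 of 15 mitochondrial genes (40%, exact 95% interval 16.3 to 67.7) had a summit, against 20.3% of all protein-coding genes. The classes thus stood much closer at that limit than in the IDR list.

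The count of mitochondrial genes also moved with the replicate. Among the 3260 strongest peaks of replicate 2 alone, 6 cytosolic genes and 3 mitochondrial genes (AlaRS-m, ArgRS-m and SerRS-m) had a promoter summit, against 12.9% of all protein-coding genes, and AlaRS, AsnRS and ProRS-m did not. Among those of replicate 1 alone, 8 cytosolic genes and 2 mitochondrial genes (LeuRS-m and ProRS-m) had one, against 14.1% of all protein-coding genes. IleRS, SerRS, GluProRS, ThrRS, MetRS and LeuRS were in both. LeuRS-m showed the difference most plainly, with a signal of 69.3 at rank 2796 in replicate 1 and 17.2 at rank 15473 in replicate 2.

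**Figure D2:**
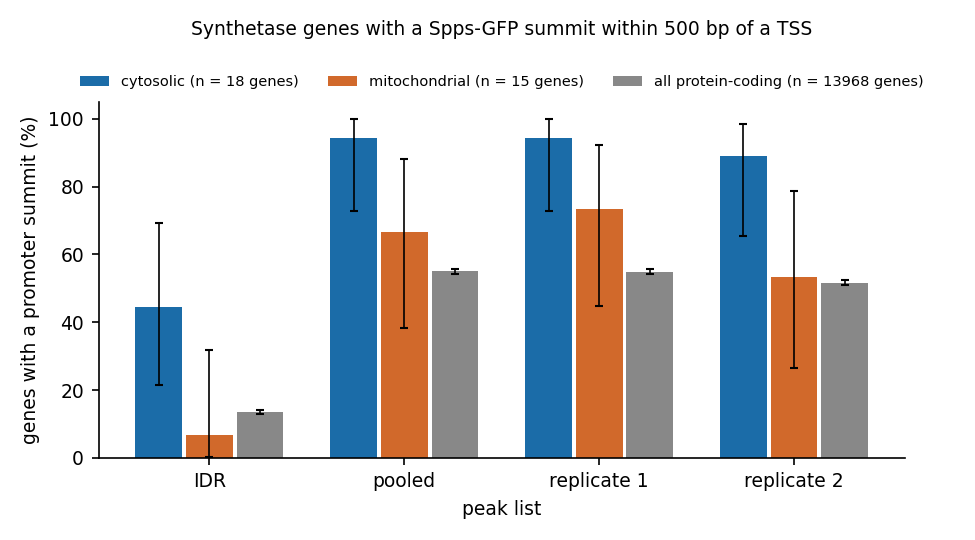
Share of genes with a summit within 500 bp of a TSS (vertical axis, %) in each of the 4 peak lists, for 18 cytosolic genes, 15 mitochondrial genes and all 13968 protein-coding genes. Bars are shares and whiskers exact 95% intervals over genes. In the IDR list the bars stand at 44.4%, 6.67% and 13.6%, and in the pooled list at 94.4%, 66.7% and 55%.

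The other cytosolic genes had weaker summits than the cytosolic genes of the IDR list, or none. ArgRS, for arginine, was the strongest of them, with a pooled signal of 75 (rank 5122), 40.5 in replicate 1 and 26.9 in replicate 2. AspRS and CysRS, for aspartic acid and cysteine, had pooled signals of 60.1 and 55.2. The median over all protein-coding genes with a pooled promoter summit was 60.5. GlyRS, LysRS, ValRS, TyrRS and HisRS had pooled signals between 40.8 and 53.6, and TrpRS, for tryptophan, had 35.2. GlnRS, the glutamine enzyme, was the cytosolic gene with no promoter summit in any list, its nearest pooled summit lying 3040 bp from its TSS.

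Mitochondrial genes made up 4 of the 5 members with no promoter summit in any list. They were GluRS-m, IleRS-m, MetRS-m and ValRS-m, whose nearest pooled summits lay 2321, 1572, 18103 and 3961 bp from a TSS. In the pooled list 66.7% of mitochondrial genes still had a promoter summit, against 55% of all protein-coding genes. The remaining 4 members with a summit in 1 replicate list were all in replicate 1. These were AspRS-m (signal 47.3 in replicate 1), AsnRS-m (27.1), TyrRS-m (22.4) and TrpRS (22.7), and TyrRS-m was absent from the pooled list as well. CysRS-m had a pooled signal of 69.8, and TrpRS-m the lowest of all members, 25.

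Replicate summits fell at the same site for most members. A promoter summit was present in both replicate lists for 24 of 33 members, and for 23 the replicates had summits within 200 bp of each other (16 cytosolic and 7 mitochondrial genes), where 39% of all protein-coding genes did. Replicate 1 alone had a summit at 28 members, against 54.9% of all protein-coding genes, and replicate 2 at 24, against 51.7%. For the 9 genes with an IDR summit the strongest replicate summits lay 7 to 138 bp apart (median 14 bp), and for the 15 others 12 to 573 bp apart (median 68 bp). The widest gap, 573 bp, was at LysRS, which also had a closer pair of summits, and TrpRS-m (453 bp) had no summits within 200 bp of each other. Over these 24 genes the log2 signals of the replicates had a Pearson r of 0.866 (Spearman rho 0.812), which describes genes that share libraries and 1 control.

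**Figure D3:**
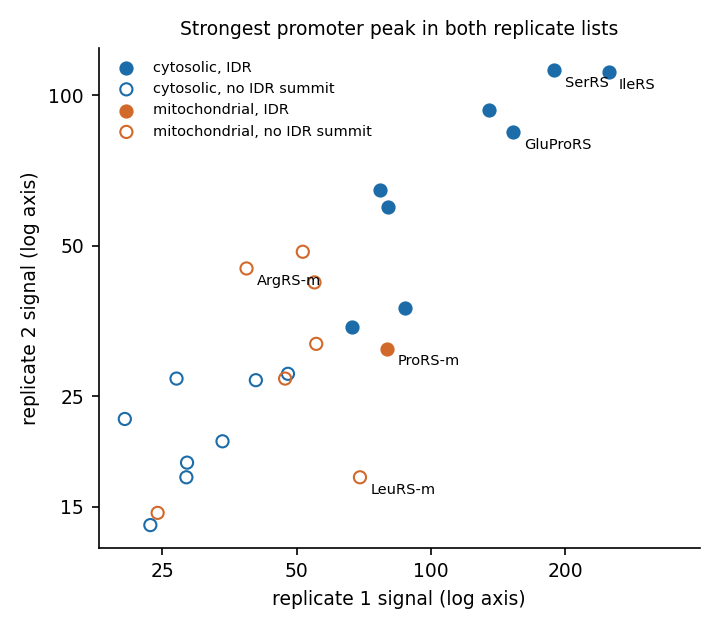
Signal of the strongest promoter peak in replicate 1 (horizontal, log axis) and replicate 2 (vertical, log axis) for the 24 synthetase genes with a summit in both lists, filled where the gene has an IDR summit. IleRS and SerRS stand highest in both replicates, and LeuRS-m lies low in replicate 2 (17.2) for its replicate 1 signal (69.3).

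Cytosolic and mitochondrial enzymes for the same amino acid were set side by side for 12 amino acids, matched by symbol. GluProRS matches no -m symbol, so the pairing left out GluRS-m and ProRS-m. The cytosolic gene had an IDR summit in 6 of the 12 (Ala, Asn, Ile, Leu, Met and Ser), beside 13.6% of all protein-coding genes. The mitochondrial gene had one in 0, a count fixed by leaving out ProRS-m, the only mitochondrial gene with an IDR summit. For proline, GluProRS (pooled signal 239) and ProRS-m (110) both had one. In the pooled list both genes had a summit for 8 amino acids, and the cytosolic signal was higher in 5 and the mitochondrial in 3 (Arg, Asp and Cys). For the other 4 (Ile, Met, Tyr and Val) only the cytosolic gene had one. For serine the signals were 302 and 91.6, and for alanine 119 and 96.9. For cysteine they were 55.2 at the cytosolic gene and 69.8 at the mitochondrial gene. In replicate 1 both genes had a summit for 9 amino acids, with the cytosolic signal higher in 6 and the mitochondrial in 3, and only the cytosolic gene had one for 3. In replicate 2 both had a summit for 5, with the cytosolic signal higher in 2 and the mitochondrial in 3 (Ala, Arg and Cys), while only the cytosolic gene had one for 6 and only the mitochondrial gene for 1 (Trp). By symbol, 6 cytosolic genes had no -m partner (GlnRS, GluProRS, GlyRS, HisRS, LysRS and ThrRS), some of which are known in animals to serve both compartments. They held 2 IDR summits, at GluProRS and ThrRS, and the 12 with a partner held 6, again beside the 13.6% of all protein-coding genes. GluProRS falls in the first group only through its fused symbol, since GluRS-m and ProRS-m serve its amino acids.

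The cytosolic enzymes were also grouped by structure, a comparison chosen after the data were seen. Of 8 enzymes of the multisynthetase complex 4 had an IDR summit, and of 10 free enzymes 4, where 13.6% of all protein-coding genes did. Synthetases fall into a pair of unrelated catalytic fold classes. Of 9 class I enzymes 3 had an IDR summit, of 8 class II enzymes 4, and GluProRS, which joins both folds, had one. These counts are too small to show whether the groups differ.

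Nearly all the reproducible summits lay between a synthetase TSS and a TSS of a gene read in the opposite direction. The SerRS summit, between such start sites, was also inside an intron of the neighbour CG17260. A protein-coding TSS of the other strand lay within 1000 bp of 1253 of the 1897 protein-coding genes with an IDR promoter summit. It did so at 23 of all 33 synthetase genes (69.7%). Of the 9 synthetase genes with an IDR summit 8 had such a TSS, AlaRS being the exception. The neighbours were Hem (470 bp from the IleRS TSS; a subunit of the WAVE actin regulator), CG17260 (8 bp from SerRS), AP-1sigma (260 bp from GluProRS; a clathrin adaptor subunit) and Patsas (466 bp from ThrRS). They were CG15084 (245 bp from MetRS), CG17593 (216 bp from LeuRS), DCTN6-p27 (369 bp from AsnRS; a dynactin subunit) and Snup (238 bp from ProRS-m; a snurportin, which carries spliceosomal RNPs), where CG42304 shares the Snup start. The summit was nearer to the neighbour's TSS at GluProRS (100 against 160 bp), ProRS-m (99 against 139 bp) and SerRS (2 against 6 bp), and nearer to the synthetase at the other 5. When a summit counted only for the gene with the closest TSS, 6 cytosolic genes and 0 mitochondrial genes had one, against 9.77% of all protein-coding genes.

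**Figure D4:**
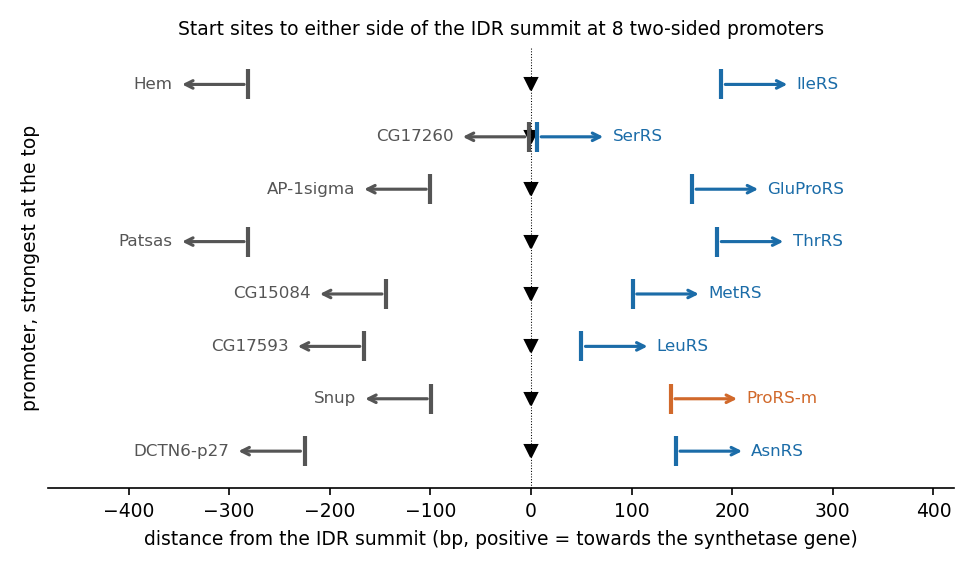
Distance in bp from the IDR summit (triangle, at 0) to the TSS of the synthetase gene (right, coloured) and to the nearest TSS of the opposite-strand neighbour (left, grey) at 8 promoters ordered by signal, with arrows for the direction of transcription. The summit lies between the 2 start sites in every row, from 2 bp to 281 bp from the neighbour.

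Such neighbours were more frequent at cytosolic than at mitochondrial genes, a difference that was not tested. A TSS of the other strand lay within 1000 bp of 16 of 18 cytosolic genes (88.9%) and 7 of 15 mitochondrial genes (46.7%), against 36.8% of all protein-coding genes. Over the whole genome, genes with such a neighbour had an IDR summit in 24.4% of cases and genes without one in 7.3%. Among the synthetases with such a neighbour, 7 of 16 cytosolic genes (43.8%, exact 95% interval 19.8 to 70.1) and 1 of 7 mitochondrial genes (14.3%, 0.361 to 57.9) had an IDR summit. Without one, AlaRS was 1 of 2 cytosolic genes, and 0 of 8 mitochondrial genes had a summit, which allows up to 37.5%. The part of the neighbourhood in the difference between classes was not tested, and a summit in a shared promoter cannot be given to either gene from these data.

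All 9 IDR summits lay upstream of the synthetase TSS, at 6 to 189 bp (median 139 bp). Of all protein-coding genes with an IDR promoter summit, 87.1% had it upstream. Their median position, with the downstream summits included, was -139 bp. In the pooled list the cytosolic summits were upstream in 15 of 17 genes, with a median position of -151 bp, and the mitochondrial summits in 6 of 10, with a median of -30 bp. For all protein-coding genes in that list 71.8% were upstream, with a median of -98 bp. PheRS-m, ArgRS-m, AsnRS-m and TrpRS-m were the mitochondrial genes with a summit downstream of the TSS, at 4 to 187 bp. Both classes mostly have 1 annotated TSS (11 of 18 cytosolic and 13 of 15 mitochondrial genes), and their median gene lengths were 3090 and 2727 bp.

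**Figure D5:**
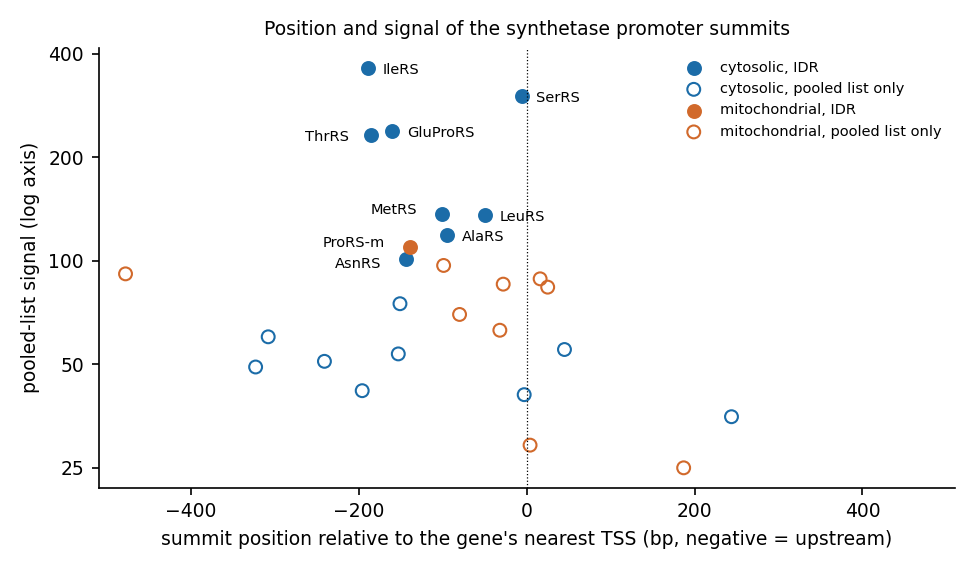
Position of the strongest pooled-list promoter summit of each synthetase gene relative to its nearest TSS (horizontal, bp, negative is upstream) against its pooled-list signal (vertical, log axis), for 17 cytosolic and 10 mitochondrial genes, filled where the gene has an IDR summit. The 9 filled points all lie left of the TSS, from -189 to -6 bp.

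Core promoter elements were looked for in the 300 bases from 250 before to 50 from the TSS on, both strands, in all 13945 promoters on the arms. The DRE (TATCGATA), an element of housekeeping promoters bound by DREF, was in 4 of 18 cytosolic promoters (AlaRS, ArgRS, IleRS and TrpRS) and 1 of 15 mitochondrial ones (PheRS-m), against 9.36% of all promoters. Of these 5 genes AlaRS and IleRS had an IDR summit. The DRE sites of these 2 and of ArgRS and TrpRS, which had none, are shown on the gene's strand with the DRE in capitals, at chr2L:8381765-8381794 (minus strand), chr3L:22288612-22288641 (plus strand), chrX:15844161-15844190 (minus strand) and chr3R:9266958-9266987 (minus strand).
AlaRS: atctctaaatcTATCGATAtctcatccagt
IleRS: tcggaacctacTATCGATAtcgcgaaccca
ArgRS: gctgttatcgtTATCGATAggcgacgtgtg
TrpRS: atatttctcatTATCGATAtttttaacagt
The IleRS DRE began 42 bp before the TSS, while the summit lay 189 bp before it, and it was outside the 100 bp around the summit. The AlaRS DRE, 19 bp before the outermost TSS, was inside that window.

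The other elements are given by their counts, which were not tested. The BEAF-32 core CGATA, which also lies within every DRE, was in 13 cytosolic and 8 mitochondrial promoters (63.6% of members against 47.4% of all promoters). The core of Motif 1 (GGTCACACT), an element of housekeeping promoters, was in GlnRS, AsnRS-m, AspRS-m and ProRS-m (12.1% against 6.05%). The Sp/KLF core (GGGCGGG or GGGCGTG), the kind of site the Sp family is known to bind, was in the TyrRS-m promoter (3.03% of members against 2.67% of all promoters). It was in no window at the 9 IDR summits, a count of 0 of 9 that allows up to 33.3%. Of the 1388 IDR promoter summit windows 1.08% held it. A TATA box string was in 54.5% of member promoters, against 45.8% of all promoters. It was within 100 bp of 7 of the 9 summits, against 43.2% of the 1388 windows, in sequence that is rich in A and T.

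The E-box CACGTG, the site of Myc, was in the GlnRS and LeuRS-m promoters (6.06% against 4.2%), and the ATF4 site TGATGCAA in none (0.817% of all promoters). The Pho site GCCAT was in 11 members (33.3% against 41.2%), the GAGA string GAGAG in 6 (18.2% against 29.7%), the Initiator in 10 (30.3% against 35.1%) and GTGTGT in 2 (6.06% against 15.7%). Within 100 bp of the 9 IDR summits the Initiator was found at 4, against 15.1% of the 1388 IDR promoter summit windows. There the Pho site was at 3, against 24.1%, and GAGAG and GTGTGT were at none, against 18.5% and 9.15%. Motif 7 was in 6 members (18.2% against 9.29%). Motif 6 (2.23% of all promoters) and the Zelda site CAGGTAG (1.64%) were in none. A match describes the letters in the window and does not show that a factor binds there.

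Of 10 related genes of aminoacylation 8 had a pooled promoter summit, where 55% of all protein-coding genes did. An IDR summit was at 0 of the 10, so the share could be up to 30%, and the 13.6% of all protein-coding genes lies within that limit. The 2 subunits of the cytosolic phenylalanine enzyme had pooled signals of 69.5 (alpha-PheRS) and 52.5 (beta-PheRS). GatC, GatA and GatB, subunits of the amidotransferase that makes mitochondrial glutaminyl-tRNA, had 75.9, 47.8 and 26.1, and Slimp, a paralogue of mitochondrial seryl-tRNA synthetase, had 47.3. Among the scaffold proteins of the multisynthetase complex, AIMP3 had 36.2 and AIMP2 29.1, and AIMP1 had a summit in replicate 2 only (26). Dtd, a deacylase that removes D-amino acids from tRNA, had none in any list.

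Of the 2 genes of the amino acid starvation response, Gcn2 had an IDR summit, where 13.6% of all protein-coding genes did. Gcn2 encodes the kinase that senses uncharged tRNA, and its summit lay 260 bp upstream of a TSS with a pooled signal of 186 (rank 1224). The replicate signals were 103 (rank 1498) and 78.2 (rank 1092), which places it between ThrRS and MetRS in the pooled list. Ugt35D1 starts 356 bp from a Gcn2 TSS on the other strand, and the summit cannot be given to either gene from these data. The transcription factor gene crc, the fly ATF4, had a pooled signal of 47.6 (rank 10312) and no IDR summit.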

How the data were processed

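Peak lists on dm6 were used as deposited. The deposited listings name 1 control behind all lists, the replicate's own alignment behind a replicate list, both alignments behind the pooled list, and those 3 lists behind the IDR list. The software and cutoffs for alignment and peak calling were not given in the sources used here. The signal is the authors' deposited enrichment per peak, used to rank or describe peaks within a list. The deposited −log10 q-value is capped, at 3.96 in every IDR peak, and is quoted once. Coordinates are 1-based.

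Genes and TSSs came from Ensembl release 115 (BDGP 6.54) and sequence from RefSeq assembly release 6. No annotation or peak reached past a chromosome end. Members, lists and motifs were chosen with earlier results of these data known. All members are accounted for: those with an IDR summit, the 3 strongest others per class, those in 1 replicate list or in none, and related genes with a summit are named. LeuRS-m, ArgRS-m, GlyRS, LysRS, ValRS, TyrRS, HisRS, CysRS-m and TrpRS-m were named after their values were seen. Shares have exact (Clopper-Pearson) 95% intervals, and a count of 0 was given an upper limit of 3 genes of the total. No test compares samples or gene lists. The assignment of summits to genes was tested on simulated data with 200 planted summits. Alternatives changed windows, start sites, list lengths and replicates. Software was SciPy 1.17.1 and NumPy 2.4.6 for the computations, pandas 2.3.3 for tables and matplotlib 3.10.9 for plots, under Python 3.11.15.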

Additional observations from a re-analysis of the deposited data

How the results depend on the processing

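The count of 9 synthetase genes with an IDR promoter summit fell to 4 with the 1000 strongest IDR peaks and rose to 14 with the 5000 strongest pooled peaks, and it was 9 to 10 without one of the replicates. The cytosolic count of 8 fell to 5 when the peak had to overlap the TSS and to 4 with the 1000 strongest IDR peaks, and was 6 to 8 without one of the replicates. The mitochondrial count of 1 was 2 with a promoter window of 1000 bp, 0 with the nearest TSS only, 0 with the 1000 strongest IDR peaks, 6 with the 5000 strongest pooled peaks, and 2 to 3 without one of the replicates. Among amino acids with both members by symbol, a set that leaves out ProRS-m, the mitochondrial share was 0%. The cause was not tested, and the longer and shorter lists differ by construction. In the pooled list the counts without one of the replicates were 24 to 28 for all members, 16 to 17 for cytosolic and 8 to 11 for mitochondrial genes. Counts in the pooled list, of sites shared by the replicates and of upstream summits stayed within 1.5 times. Of 14 motif counts, 5 moved further when the 100 bp around the summit replaced the promoter. No paired analysis was possible because there was 1 group. Depth is unknown, and with 18 and 15 genes only large differences between classes could be seen.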
